A study of Mus musculus with 6 samples.

Results

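The synaptonemal complex genes are a set of 7, Syce1, Syce2, Syce3, Sycp1, Sycp2, Sycp3 and Tex12, and they were followed here in activated Th17 cells of the mouse that carry the labels Sirt2 KO and Sirt2 WT. They were chosen by name as the proteins of one structure, and they were taken up because the levels of Syce1 in Sirt2 KO and WT libraries had already been seen to differ. The difference of Syce1 between genotypes is therefore given as a description with no test. Of the 7 genes, 3 (Syce1, Syce2 and Sycp3) had a row among the 24182 genes of the gene table, and 7 of their transcripts were among the 73900 of the transcript table. Syce3, Sycp1, Sycp2 and Tex12 had no row, and their levels were not analysed here. No gene in the table was listed at 0 in all 6 libraries.

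The 6 libraries came from bulk RNA of Th17 cells, the CD4 T helper cells named for making interleukin 17. Sirt2 encodes a NAD-dependent deacetylase, and it was the target of CRISPR/Cas9 in the 3 libraries labelled Sirt2 KO. The 3 libraries labelled Sirt2 WT were the controls. Cells of both genotypes received antibodies to CD3 (0.5 μg/mL) and CD28 (1 μg/mL) for 72 hours, which engage the T cell receptor and a costimulatory receptor, and the labels list no other treatment. The labels do not say which guide was used, whether the edited cells were a clone or a mixed population, or whether replicates were separate cultures or animals. The p-values thus set the difference between groups against the spread between these libraries, and that spread may be technical. Values are FPKM, in which the fragments of a transcript are divided by its length and by the size of the library, and differences are on the log2(FPKM + 1) scale, KO minus WT, where low genes appear to change less than they do in FPKM.

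The synaptonemal complex is the protein zipper that holds paired homologous chromosomes together during meiotic prophase. Sycp2 and Sycp3 form the lateral elements along each chromosome axis, Sycp1 spans the gap between the axes, and Syce1, Syce2, Syce3 and Tex12 build the central element where the sides of the zipper meet. The genes work in spermatocytes and oocytes, and in most other cells many genes of meiosis are kept silent by DNA methylation and by a repressive complex that reaches their promoters through E-box and E2F sites.

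The DNA just before the start sites is shown for the members on which the results turn, since these are the promoters of a gene that differed and of one that was expressed in every library. RefSeq windows on GRCm38.p6 were found for all 7 members, with 9 start sites between them. The 250 bases before the start of Syce1 lie at chr7:140787855-140788104 on the minus strand, and those before the first start of Syce2 at chr8:84871861-84872110 on the plus strand. Neither holds the E-box CACGTG or the E2F-type motif GGCGGGA on either strand, so both are written without capitals.
Syce1: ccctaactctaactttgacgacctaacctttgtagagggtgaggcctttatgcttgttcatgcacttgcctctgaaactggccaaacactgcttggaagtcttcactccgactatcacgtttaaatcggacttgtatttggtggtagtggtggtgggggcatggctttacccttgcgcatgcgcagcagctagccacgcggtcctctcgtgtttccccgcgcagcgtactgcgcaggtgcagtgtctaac
Syce2, first start: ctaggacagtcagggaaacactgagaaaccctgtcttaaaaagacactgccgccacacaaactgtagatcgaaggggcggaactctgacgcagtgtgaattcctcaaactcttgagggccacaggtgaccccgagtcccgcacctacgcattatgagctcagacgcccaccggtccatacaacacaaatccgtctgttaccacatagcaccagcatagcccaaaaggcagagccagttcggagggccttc

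An E-box was found in the windows of 4 of the 7 members, Syce2 at its second start, Sycp1, Sycp3 and Tex12. Of all 32851 RefSeq windows of this length before start sites, 6.02% held one. That share is by window, while the members are counted by gene and have 9 windows between them, so the measures are unlike. The 30 bases around each are shown because the E-box is the motif known from silenced genes of meiosis, and it is in capitals. They lie at chr8:84872158-84872187 (plus strand) for Syce2, chr3:102936177-102936206 (minus) for Sycp1, chr10:88459521-88459550 (plus) for Sycp3 and chr9:50561344-50561373 (minus) for Tex12. Sycp3 holds the motif at 2 places, and the Syce2 site falls in the first exon of the transcripts that begin at its first start.
Syce2, second start: cgtttcattcagCACGTGctcggggcgggg
Sycp1: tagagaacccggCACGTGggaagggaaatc
Sycp3: ccCACGTGagaacgggcatggagCACGTGc
Tex12: ccgcgagactgtCACGTGgctcgcgcgctg

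GGCGGGA stood in the windows of 2 members, Syce2 at its second start and Tex12, and in 9.75% of all RefSeq windows, again a share by window. The window of Syce1 held 13 CpG dinucleotides and that of Syce2 11 at the first start and 24 at the second, against a median of 6 over all windows. A match of letters describes the window and shows no binding.

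Before the members, the targeted gene was read in every library. In KO replicates 1, 2 and 3 Sirt2 measured 11.2, 13.5 and 10.9 FPKM, and in WT replicates 1, 2 and 3 it measured 20.7, 19.9 and 21.9 FPKM. Every KO library lay below every WT library, and the mean in KO was 0.572 of that in WT, so transcripts of the gene were still read in the KO libraries. The log2 difference was -0.76 (SE 0.0920), with an adjusted p of 0.0429 by limma among genes that reached 1 FPKM in at least 3 libraries. That value ranged from 0.00905 to 0.376 over 12 settings. With no filter the adjusted p by limma was 0.131, and it ranged from 0.0780 to 0.824 over 11 settings. The sum of FPKM over genes was 303772 to 321734 per library, and the depth in reads is unknown from these values. KO replicate 3 stood apart from the other KO libraries, with a correlation across genes of 0.981 and 0.979 with them and of 0.990 with each WT library. Results that rest on it are given with and without it. Summed per library, the 11 Th17 and T cell markers gave 920 to 954 FPKM in WT and 790 to 978 FPKM in KO. Myeloid markers (6 of 6 with a row) gave 2.53 to 3.25 FPKM in WT and 8.17 to 12.6 FPKM in KO, and B cell markers (5 of 5) gave 0.774 to 1.07 and 1.13 to 2.19 FPKM.

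Syce1, a central element protein, was close to absent in the KO libraries and low but readily measured in WT. The gene (ENSMUSG00000025480) lies at chr7:140777229-140787852 on the minus strand of GRCm38. In the KO libraries it measured 0.0729, 0.215 and 0.0526 FPKM (replicates 1, 2 and 3, the order used throughout), and in the WT libraries 2.80, 2.45 and 1.88 FPKM. The highest KO library was thus far below the lowest WT library, and the mean of 0.113 ± 0.0885 FPKM (SD, n = 3) in KO was 0.0478 of the 2.38 ± 0.463 FPKM (SD, n = 3) in WT. On the log2(FPKM + 1) scale the difference was -1.59, and it was -3.59 with a pseudocount of 0.1. In the authors' deposited table Syce1 has a fold of 0.0478 and a log2 fold of -4.39. These are the values that brought the gene here, and they support nothing further.

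**Figure D1:**
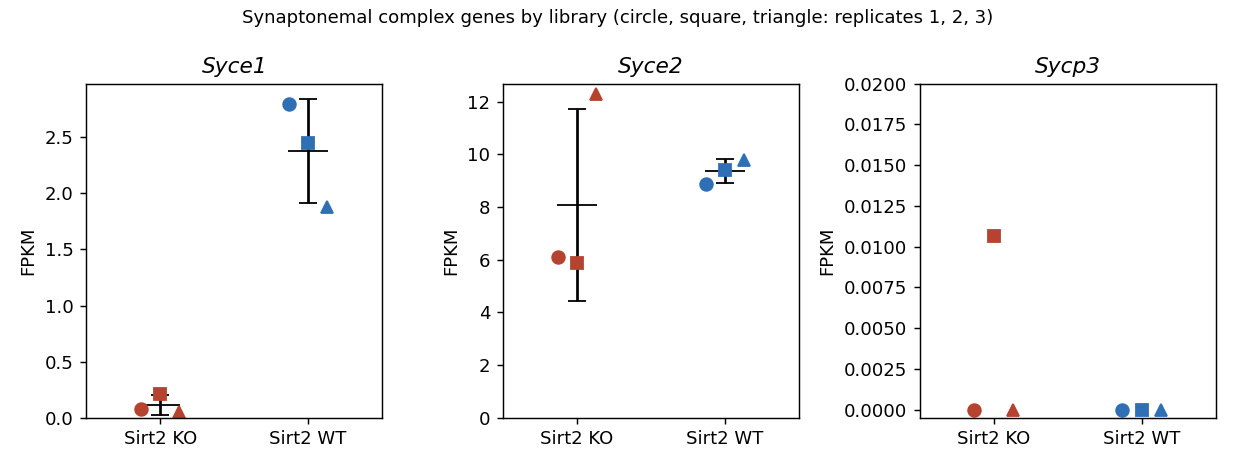
FPKM of Syce1, Syce2 and Sycp3 (each panel has its own axis from 0) in the 3 Sirt2 KO and 3 Sirt2 WT libraries, with 1 symbol per library; horizontal marks and bars are the mean and SD of 3 libraries, drawn for Syce1 and Syce2. Syce1 is at most 0.215 FPKM in each KO library and at 1.88 FPKM or more in each WT library, Syce2 is lower than WT in KO replicates 1 and 2 and higher in KO replicate 3, and Sycp3 is above 0 in KO replicate 2 alone.

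Syce1 entered the comparison of genes that reached 1 FPKM in at least 3 libraries only through its WT libraries, so it had to differ to be there, and it left the comparison when any WT library was left out. In that comparison 2 of 10873 genes were called lower in KO (0.0184%), and with no filter 0 of 24182 were. Nothing about Syce1 is read from either count.

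How little sequence lay behind the low KO values can be read in part from the table. Low values of single-exon genes, multiplied by length, piled up at a smallest common step in each library and again at its double. In multiples of that step, Syce1 stood at 5.04, 14.5 and 3.68 in KO replicates 1 to 3 and at 190, 160 and 128 in WT replicates 1 to 3. No source used here says what 1 step stands for, and only 24.0 to 27.3% of the low values in a library fell within 0.02 of a whole multiple, so read counts were not recovered. Differences among the KO libraries in Syce1 therefore rest on little sequence, while the WT libraries hold more than 100 steps each.

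The files hold 1 transcript of Syce1, Syce1-201, out of 2 models in the annotation. It has 13 exons and a length of 1460 bases, and its FPKM equalled that of the gene in each library, so no switch between transcripts could be read. The exons share no base with those of another annotated gene. In bulk RNA such as this, fewer cells with the transcript and less of it per cell cannot be told apart.

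Germ cell markers were near 0 in both groups. Of 7 germ cell markers, Ddx4 and Dazl had a row, and their sum was 0.0566 to 0.281 FPKM in the WT libraries and 0.0246 to 0.158 FPKM in the KO libraries. The highest single value was 0.193 FPKM, for Ddx4 in WT replicate 2. The RNA helicase gene Ddx4 and the RNA-binding protein gene Dazl mark germ cells of both sexes, and Syce1 was above both in each WT library. The sum of the myeloid markers was higher in each KO library than in any WT library, opposite in direction to Syce1. Lyz2 made up 4.24 to 9.44 FPKM of that sum in KO and Adgre1 overlapped between genotypes. The part of these markers in the result was not tested.

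The expressed genes next to Syce1 on chromosome 7 overlapped between genotypes, as most genes in the table did. The 3 nearest genes on each side that reached 1 FPKM in at least 3 libraries were Echs1, Paox and Mtg1 at lower coordinates (starting 672, 661 and 640 kb before it) and Bet1l, Ric8a and Psmd13 at higher coordinates (76.2, 79.7 and 105 kb after it). Echs1 encodes a mitochondrial enzyme of fatty acid oxidation, Paox a polyamine oxidase, Mtg1 a mitochondrial GTPase, Bet1l a vesicle fusion protein of the Golgi, Ric8a a chaperone of G protein alpha subunits and Psmd13 a proteasome subunit. Bet1l, the nearest of them, was at 5.30, 6.09 and 5.09 FPKM in KO and 4.25, 5.01 and 5.18 FPKM in WT. Psmd13, the most abundant, was at 55.6, 62.0 and 47.8 FPKM in KO and 48.2, 47.8 and 55.2 FPKM in WT. For each of the 6 the groups overlapped, and the log2 differences ran from -0.07 for Paox to 0.16 for Bet1l. The smallest adjusted p by limma was 0.854, and no unadjusted p was under 0.05. Over all genes every KO library was below every WT library in 5.26% and above in 3.79%. Overlap is thus the usual case, and nothing about the locus is read from it.

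Rows at lower levels also lay near Syce1, and those given here were chosen after their values were seen. The zinc finger gene Zfp941, which starts 30.2 kb after Syce1, was at 0.388, 0.339 and 0.364 FPKM in KO and 0.431, 0.453 and 0.241 FPKM in WT. Sirt3, a mitochondrial deacetylase of the same family as Sirt2, starts 86.4 kb after it and was at 0.978, 1.08 and 1.06 FPKM in KO and 0.981, 0.905 and 0.957 FPKM in WT. Both sets of values overlapped between genotypes. Around all 7 members, 42 neighbouring genes were tested by limma. Of these, 0 were called and 2 had an unadjusted p under 0.05, beside 12 and 610 of all 10873 genes.

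**Figure D2:**
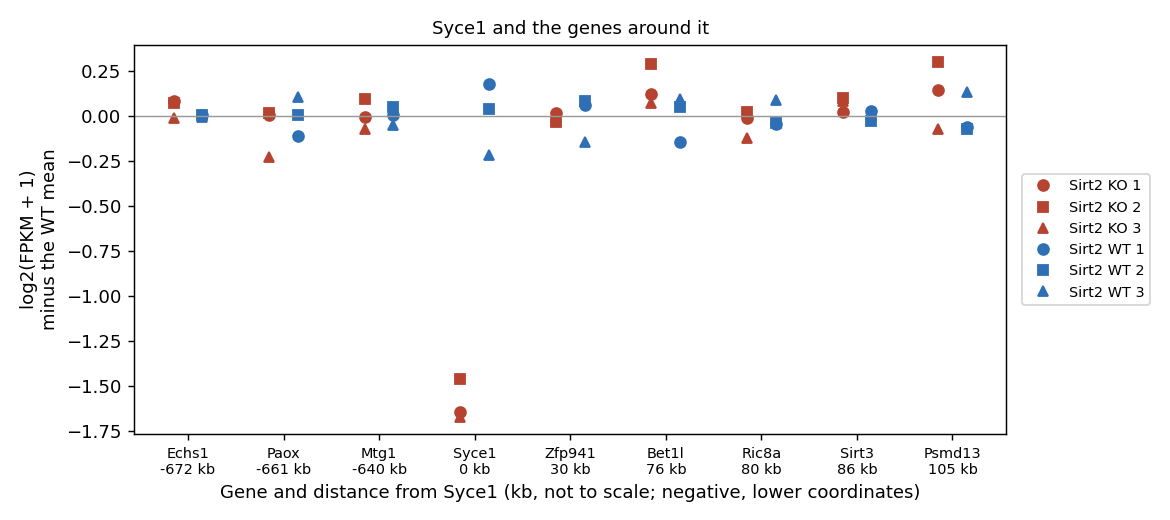
log2(FPKM + 1) minus the mean of the 3 WT libraries (vertical axis) for Syce1, its 6 neighbours at 1 FPKM or more and the lower rows Zfp941 and Sirt3 (horizontal axis, in chromosome order with the distance in kb), with 1 symbol per library. The KO libraries of Syce1 lie near -1.59 on average, while the mean differences of its 6 neighbours lie between -0.07 and 0.16.

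The genes whose levels followed Syce1 most closely differed far less between genotypes. Among genes at 1 FPKM or more in at least 3 libraries, likeness was Pearson's r of log2(FPKM + 1) over the 6 libraries, which share their genotype groups, so a gene lower in all KO libraries scores high. The 5 highest named genes were Nxf1 (0.996), the nuclear export receptor for mRNA, Tbc1d4 (0.994), a regulator of glucose transporter traffic, Naa16 (0.984), an auxiliary subunit of an N-terminal acetyltransferase, Pcsk4 (0.980), a proprotein convertase, and Pgm2l1 (0.978), a glucose bisphosphate synthase. Tbc1d4 was at 1.46, 1.64 and 1.51 FPKM in KO and 2.37, 2.38 and 2.15 FPKM in WT. Pgm2l1 was at 1.86, 1.87 and 1.998 FPKM in KO and 2.63, 2.56 and 2.43 FPKM in WT. Each of the 5 had every KO library below every WT library, as the measure favours, and their log2 differences ran from -0.38 to -0.17.

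Syce2, the partner of Tex12 in the central element, was the one member expressed at a steady level in WT cells, and its KO libraries fell on both sides of it. The gene (ENSMUSG00000003824) lies at chr8:84872111-84888221 on the plus strand. In the KO libraries it measured 6.11, 5.86 and 12.3 FPKM, and in the WT libraries 8.87, 9.43 and 9.79 FPKM. KO replicates 1 and 2 were below every WT library and KO replicate 3 was above every one, with means of 8.09 ± 3.65 FPKM (SD, n = 3) in KO and 9.36 ± 0.460 FPKM in WT. The log2 difference of -0.26 (SE 0.236, 95% interval -0.81 to 0.29) was within the spread between KO libraries, with an adjusted p of 0.874 by limma. In WT libraries Syce2 was 3.17 to 5.21 times the FPKM of Syce1.

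Which KO libraries entered decided the result for Syce2. Without KO replicate 3 the log2 difference was -0.57 (SE 0.0696) with an adjusted p of 0.00921 by limma, and without KO replicates 1 or 2 it was -0.12 or -0.09. Leaving out KO replicate 3 called 659 of 10726 genes lower in KO (6.14%), so Syce2 was then one of many. With no filter on low values the same 5 libraries gave an adjusted p of 0.0636. Among all genes at 1 FPKM or more, 3387 of 10873 (31.2%) had KO replicates 1 and 2 below every WT library, and in 1622 (14.9%) KO replicate 3 was at the same time above every WT library, as for Syce2.

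The transcripts of Syce2 divided the gene's signal in ways that differed between libraries. All 4 annotated models were in the files. Syce2-202, a protein-coding model of 1686 bases, was at 4.91, 6.27 and 12.7 FPKM in KO and 8.11, 8.90 and 7.08 FPKM in WT, and it made up 48.7 to 81.8% of the transcript FPKM of the gene in KO and 43.1 to 62.7% in WT. Syce2-204, a shorter protein-coding model of 929 bases, was at 1.57, 0.283 and 0.585 FPKM in KO and 2.24, 0.873 and 4.93 FPKM in WT. The groups overlapped for both, and KO replicate 3 was the highest library for Syce2-202 but not for Syce2-204.

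The other models of Syce2 are not annotated as making a protein in full. Syce2-201, annotated as a target of nonsense-mediated decay, was at 2.75, 0.777 and 1.81 FPKM in KO and 1.72, 3.08 and 3.20 FPKM in WT. Syce2-203, with a retained intron, was at 0.861, 0.337 and 1.998 FPKM in KO and 1.16, 1.36 and 1.20 FPKM in WT. KO replicate 3 was thus the highest library for Syce2-203 too. Over the 73900 transcripts, 4 were called by limma in either direction (0.00541%), and none of the 7 member transcripts was among them. The log2 differences of the Syce2 transcripts ran from -0.93 (SE 0.491) for Syce2-204 to -0.10 (SE 0.330) for Syce2-202, with unadjusted p from 0.111 to 0.771. FPKM of overlapping models are estimates that share reads, so a shift between them in 1 library is less certain than the gene's total.

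**Figure D3:**
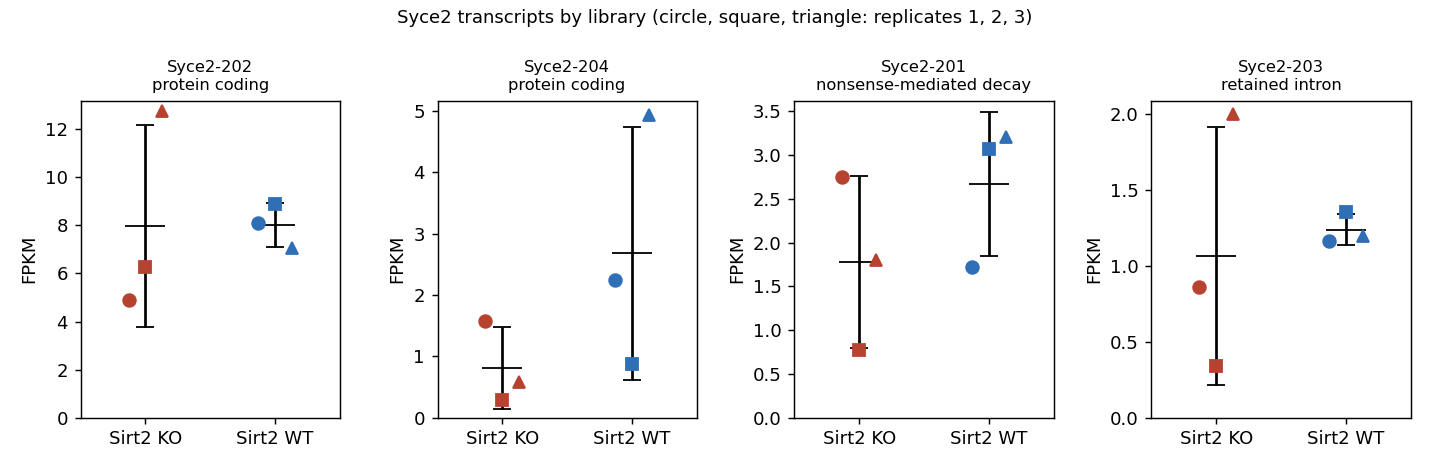
FPKM of the 4 Syce2 transcripts (a panel each, with its own axis from 0) in the 3 Sirt2 KO and 3 Sirt2 WT libraries, with 1 symbol per library and the mean and SD of 3. KO replicate 3 is highest for Syce2-202 at 12.7 FPKM and for Syce2-203 at 1.998 FPKM, and the groups overlap in each panel.

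Sycp3, which forms the lateral elements with Sycp2, was at the edge of detection. It lies at chr10:88459569-88473236 on the plus strand. It was at 0.0106 FPKM in KO replicate 2 and listed at 0 in the other 5 libraries. In multiples of the common step described for Syce1, the value in KO replicate 2 was 0.620, less than a single step. Of its 1264 exon bases, 660 are shared with exons of Chpt1, a choline phosphotransferase gene on the opposite strand, which ranged from 0.597 to 0.664 FPKM over KO and from 0.640 to 0.866 FPKM over WT libraries, and without strand information reads of the pair cannot be told apart there. Levels of Sycp3 thus gave no order between genotypes.

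By level, the 3 members with a row were ordered Syce2, Syce1, Sycp3 in the mean over libraries. Syce2 was above Syce1 in every library of both genotypes, and Syce1 was above Sycp3 in every WT library, while in KO replicates 1 and 3 Syce1 was under 0.1 FPKM and no order between those genes is read. The central element proteins Syce1 and Syce2 were thus the members read in Th17 cells, and their contrasts between genotypes were unlike. Syce1 was lower than WT in all 3 KO libraries, while Syce2 was lower in 2 and higher in 1.

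The other genes of meiosis and the germ line were for the most part barely expressed, and limma called none of them. From 7 lists of 67 genes, 41 had a row, 29 of these stayed under 1 FPKM in every library, and 9 reached 1 FPKM in at least 3 libraries. Called genes were 0 of 41 without a filter, where 8 of 24182 genes were called in either direction (0.0331%). With the filter they were 0 of 9, where 12 of 10873 genes were called. An unadjusted p under 0.05 was reached by 4 of the 41 and by 1275 of all 24182. The median log2 difference was -0.01 over the 41 and -0.01 over all genes. Every KO library was below every WT library for 6 of the 41, where the share over all genes was 5.26%, and every KO library was above every WT library for 0 of them (3.79% of all genes).

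Genes that work with the synaptonemal complex were either broadly used or very low. Trip13, the ATPase that removes HORMA domain proteins from synapsed axes and that also serves the mitotic checkpoint, was at 33.0, 31.0 and 26.3 FPKM in KO and 29.0, 28.7 and 30.8 FPKM in WT. Skp1a, a ubiquitin ligase subunit found in many cells and also at the synaptonemal complex, was at 97.0, 98.6 and 91.0 FPKM in KO and 90.7, 93.5 and 103.6 FPKM in WT. Groups overlapped for both. Hormad2, an axis protein of unsynapsed chromosomes, was at 0.443, 0.411 and 0.713 FPKM in KO and 0.767, 0.780 and 0.824 FPKM in WT. Its groups did not overlap, but the log2 difference of -0.24 (SE 0.0939) had an adjusted p of 0.862 by limma.

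Fbxo47, an F-box protein of meiotic cells, was at 0.160, 0.313 and 0.237 FPKM in KO and 0.176, 0.141 and 0.133 FPKM in WT. The paralogs of the members, Syce1l and Sycp2l, did not exceed 0.0803 FPKM in any library. Syce1l was listed at 0 in 5 of the 6 libraries and was at 0.0226 FPKM in KO replicate 2.

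The meiotic cohesin subunits Rec8 and Stag3, which tie sister chromatids along the axis, were low in both groups. Stag3 was at 0.270, 0.274 and 0.252 FPKM in KO and 0.388, 0.298 and 0.441 FPKM in WT, with no overlap. Rec8 was at 0.0858, 0.297 and 0.428 FPKM in KO and between 0.196 and 0.316 FPKM in WT, with overlap. Among the genes that make meiotic DNA breaks, Rec114, a partner of Mei4 and of the nuclease Spo11, was at 0.0221, 0.0581 and 0.0907 FPKM in KO and 0.270, 0.152 and 0.189 FPKM in WT. Its groups did not overlap, and its log2 difference of -0.19 (SE 0.0450) had an adjusted p of 0.661 by limma. Prdm9, Mei4 and Ccdc36 overlapped between genotypes.

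Recombination genes with a role outside meiosis were higher. Psmc3ip and Mnd1, which act as a pair with the strand exchange proteins, were at 7.14 to 10.01 and 5.68 to 8.04 FPKM in KO and at 6.89 to 8.37 and 7.09 to 9.23 FPKM in WT. Mlh3, which acts in crossover formation, ranged from 1.65 to 2.23 FPKM over KO and from 1.91 to 2.65 FPKM over WT libraries. The groups overlapped for all 3. Among genes that tie telomeres to the nuclear envelope, Sun1, an envelope protein of many cells, ranged from 5.21 to 6.36 FPKM over KO and from 6.01 to 6.27 FPKM over WT libraries, while Ccdc155 and Terb1 did not exceed 0.254 FPKM.

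Tex11, a gene on the X chromosome whose protein acts in meiotic crossover formation, was the meiotic gene outside the complex with the pattern closest to that of Syce1, and it was chosen after its values were seen. It was listed at 0 in all 3 KO libraries and at 0.280, 0.341 and 0.210 FPKM in WT replicates 1 to 3. The WT values were 47.2, 55.4 and 35.5 of the common steps. Its log2 difference of -0.35 (SE 0.0399) had an adjusted p of 0.131 by limma, which ranged from 0.0894 to 0.737 over 11 settings. In the authors' deposited table Tex11 has a q-value of 2.83e-08, and 0.422% of the genes in that table have a q-value under 0.05. Genes listed at 0 in every KO library and at 0.2 FPKM or more in every WT library numbered 3 of 24182, and those with the groups reversed numbered 4.

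Germ cell and spermatid genes added no further contrast. Tex15, which acts in silencing of transposons in the male germ line, was at 1.30, 0.780 and 1.17 FPKM in KO and 1.12, 1.08 and 0.892 FPKM in WT. Ythdc2, an RNA helicase needed for meiotic entry and found in other tissues, was at 4.06, 3.23 and 4.30 FPKM in KO and 4.52, 4.62 and 4.22 FPKM in WT. Tnp2, a transition protein of spermatids, ranged from 0.334 to 1.11 FPKM over KO and from 0.373 to 1.83 FPKM over WT libraries, and Tssk6, a spermatid kinase, from 0.319 to 0.931 and from 0.792 to 1.03 FPKM. All 4 overlapped between genotypes.

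**Figure D4:**
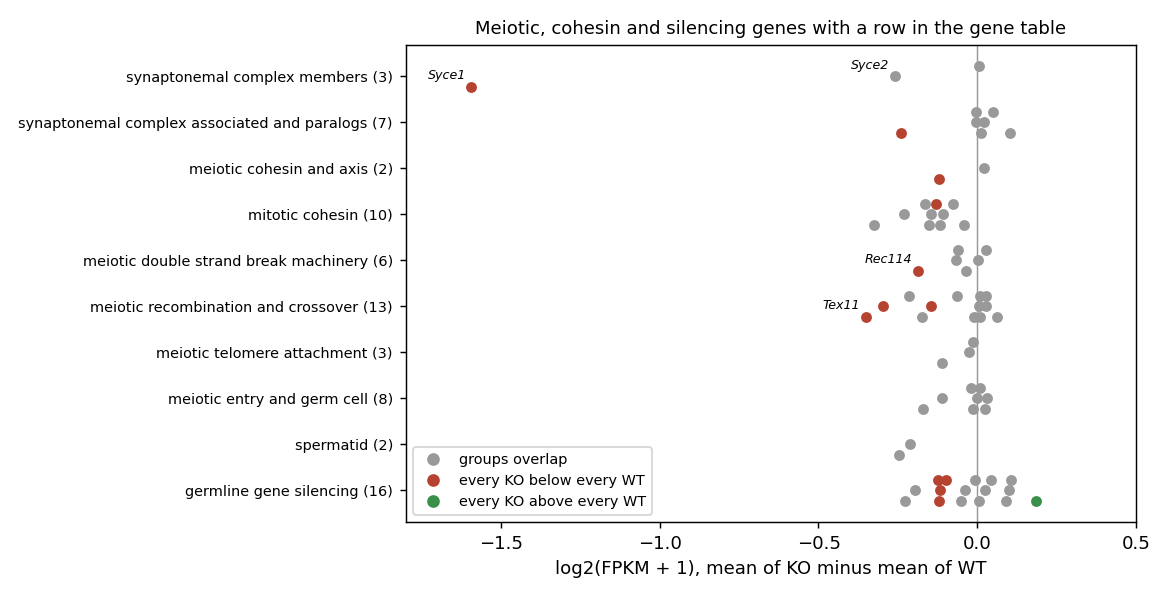
Difference of the mean log2(FPKM + 1), KO minus WT (horizontal axis), for every listed gene with a row, grouped by list with the number of genes in brackets; red points have every KO library below every WT library, green the reverse and grey points overlap. On this scale Syce1 at -1.59 lies apart from the other genes, of which Tex11 at -0.35 is the lowest. The scale makes changes of low genes smaller, and with a pseudocount of 0.1 Syce1 was at -3.59 and Tex11 at -1.90.

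The genes that silence the germ line in other cells were all expressed. All 16 reached 1 FPKM in at least 3 libraries. By limma 0 were called and 0 had an unadjusted p under 0.05, beside 12 and 610 of all 10873 genes. The median log2 difference was -0.02 against -0.03 over all 10873 genes. E2f6 and Mga, which bring the repressive complex to E2F and E-box sites, were at 5.29, 5.88 and 4.77 and at 4.67, 3.36 and 7.48 FPKM in KO, and at 4.96, 4.53 and 5.17 and at 6.65, 5.73 and 5.52 FPKM in WT. Dnmt1, which copies DNA methylation after replication, was at 69.0, 72.9 and 79.1 FPKM in KO and 81.0, 79.7 and 80.1 FPKM in WT. Its partner Uhrf1 was at 105, 110 and 104 FPKM in KO and 112, 113 and 117 FPKM in WT. Dnmt1, Uhrf1, Ehmt2 and Pcgf6 had every KO library below every WT library, and the de novo methyltransferase gene Dnmt3a had the reverse, with adjusted p of 0.843 to 0.853 by limma for these 5. Over all genes the shares were 5.26% below and 3.79% above. E2f6, Mga and Dnmt3a were chosen after their values were seen, as were Ehmt2 and Pcgf6.

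The mitotic cohesin genes, whose ring holds sister chromatids in dividing cells, were in most cases lower than WT in KO replicates 1 and 2, as Syce2 was. All 10 were tested by limma. Of these, 0 were called and 0 had an unadjusted p under 0.05, beside 12 and 610 of all 10873 genes. Their median log2 difference was -0.14. Rad21, the subunit that closes the ring, was at 102.8, 94.5 and 127.3 FPKM in KO and 120.2, 121.2 and 115.3 FPKM in WT. Smc1a and Smc3, which form the arms of the ring, were at 55.4, 51.8 and 64.0 and at 41.8, 33.4 and 42.6 FPKM in KO, and at 61.2, 59.9 and 58.8 and at 42.7, 40.9 and 37.3 FPKM in WT. KO replicates 1 and 2 were below every WT library for 9 of the 10 genes, all but Smc3, and KO replicate 3 was also above every WT library for 6, beside 31.2% and 14.9% of all genes. Without KO replicate 3, 3 of the 10 were called lower, Stag2 at -0.39, Nipbl at -0.57 and Rad21 at -0.27, with adjusted p of 0.0303, 0.0343 and 0.0315 by limma, as was Ehmt1 among the silencing genes at -0.31 (adjusted p 0.0416). Over all genes 6.14% were called lower on those 5 libraries, and with no filter 0 of the 10 cohesin and 0 of the 16 silencing genes were called on them. Stag2, Nipbl and Ehmt1 were chosen after their values were seen.

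**Figure D5:**
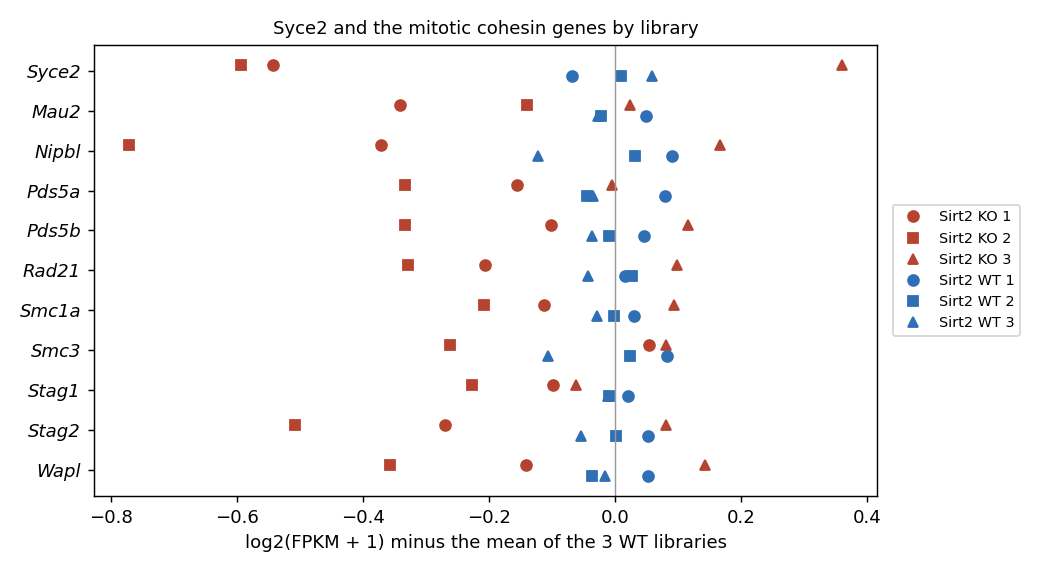
log2(FPKM + 1) minus the mean of the 3 WT libraries (horizontal axis) for Syce2 and the 10 mitotic cohesin genes (vertical axis), with 1 symbol per library. KO replicates 1 and 2 lie below the WT libraries for Syce2 and for each cohesin gene but Smc3, while KO replicate 3 lies above all WT libraries for Syce2 at 0.36.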

How the data were processed

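RNA of 6 libraries was analysed, 3 Sirt2 KO and 3 Sirt2 WT, grouped and numbered by sample titles. The authors deposited a gene and a transcript table in FPKM, per the file headers. Per the file headers, the authors also gave a fold, which is a ratio of KO to WT, its log2 value, and a p-value and q-value for each row, with no source saying which tool made them. Upstream tools in the submitters' processing notes, all without versions, are HISAT2, StringTie, cutadapt, FastQC, edgeR and DESeq2, and the build named is mm9. GENCODE's GRCm38 annotation held 73430 of the transcripts, 73203 at the same position, so positions are GRCm38. The members' distances to neighbours run between lower coordinates.

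Because FPKM are not counts, no count test was used. The genotypes were tested by limma (3.58.1, in R 4.3.3) on log2(FPKM + 1), with the variance allowed to follow mean expression and Benjamini-Hochberg adjustment over the whole table. A feature was called at an adjusted p under 0.05. One fit held the 10873 genes that reached 1 FPKM in 3 or more libraries, another all 24182 genes, and the last all transcripts. A mean ± SD is over the 3 libraries of a group. Read depth is unknown, so intervals cover the spread between libraries. The fits were tested on simulated data. Alternatives were scaling to a common median, a pseudocount of 0.1, no mean trend, other filters, a block for the replicate number, and each library left out in turn. Outside that block, replicate numbers were not used to pair the samples.

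The members and the gene lists were chosen with earlier results of these data known. Named genes are Sirt2, the members and their transcripts that reach 0.05 FPKM, up to 4 genes of each list with the highest mean and any that were called, the 3 nearest genes on each side of a member at 1 FPKM or more in at least 3 libraries (named around Syce1), and the 5 named genes with the highest r with Syce1. One gene that this rule takes is not reported here. Promoter windows come from RefSeq on GRCm38.p6. Figures were drawn with matplotlib 3.10.9.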

Additional observations from a re-analysis of the deposited data

How the results depend on the processing

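With the filter, limma called 12 genes, against 19 with a filter at 0.1 FPKM and 0 to 1088 when each library was left out in turn. The 1088 came without KO replicate 3, and the 0 without KO replicate 1, where 346 genes had an unadjusted p under 0.05. With no filter it called 8 genes, against 2 with median scaling, 4 with a pseudocount of 0.1 and 0 to 15 with a library left out. Transcript calls were 4, against 8 with no mean trend, 8 with a filter at 1 FPKM and 4 to 6 with a library left out.

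With the replicate block, 0 genes were called with no filter (1107 at an unadjusted p under 0.05) and 2 transcripts, while the filtered comparison gave 13 and Syce2 an adjusted p of 0.945. Deviations of same-numbered libraries correlated at 0.00668, -0.0170 and -0.0756, so no shared deviation by number was seen. Whether the samples were paired cannot be told from these values, and the labels do not say.

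The values of single genes under the alternatives were tallied for part of the named genes, without Stag2, Nipbl and Ehmt1. Of these values, 506 kept their side of the threshold with their direction or within the spread between libraries. A call was lost by 8 and gained by 2. Another 2, with and without the filter, were of Smc3, which turned from -0.04 to 0.07 without KO replicate 2. No called value changed sign, while small uncalled differences of Mtg1, Paox, Psmc3ip, Ric8a, Trip13 and Wapl did under at least 1 alternative. Of the 8, 7 were of Sirt2 and 1 was of Syce1. Syce1 was chosen for its difference, so its calls are not read and support nothing. Those gained were Syce2 and Rad21 without KO replicate 3, where Stag2, Nipbl and Ehmt1, outside the tally, were also called with the filter. Depth in reads is unknown, and values under 0.1 FPKM rest on little sequence, so no order is read from differences there.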
